A study of Mus musculus with 35 samples.

Results

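DNA transposons and LINEs outside the L1 family were followed through single late 2-cell mouse embryos. The members were taken from the repeat labels of the deposited tables, which give each repeat subfamily as name, family and class. A subfamily was included when its class was DNA, or when its class was LINE and its family was any other than L1. This gave 338 of 1395 repeat subfamilies, 297 of class DNA and 41 of class LINE. A further 27 subfamilies whose class carries a question mark (DNA? or LINE?) were outside the rule and were not counted among them.

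DNA transposons move by cut and paste with a transposase enzyme, and LINEs copy themselves through an RNA that their own protein reverse-transcribes. In the mouse the DNA transposons (chiefly the hAT and Tc1/mariner superfamilies) and the L2 and CR1 LINEs are regarded as fossils, old copies that no longer move. Such copies lie largely within introns and between genes, so their sequence can be read as part of another transcript. MIR, a short element that used the L2 machinery, and the L1M subfamilies, the oldest of L1, are fossils of the same kind and are used below for comparison.

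All embryos were of the cross between C57BL/6J and CBA/H mice. Zygotes were injected 24 h after hCG and cultured in KSOM, and each embryo was collected at 48 h as a library of its own. The 9 controls received a scrambled antisense oligo, the 9 DUX-LOF embryos an antisense oligo to DUX, the 7 SRF-LOF embryos mRNA of a dominant negative SRF, and the 10 double-LOF embryos both agents. DUX is a transcription factor that switches on 2-cell genes and SRF is a transcription factor of actin and immediate early genes. SRF-LOF embryos carried no oligo and no group carried a control mRNA. An effect of injected mRNA as such therefore cannot be told apart from that of dominant negative SRF. Between double-LOF and SRF-LOF, carrying any oligo cannot be told apart from the DUX oligo. Between SRF-LOF and control, and so in the interaction, the lack of an oligo cannot be told apart from dominant negative SRF. The labels name no litter, injection day or batch, and the p-values therefore measure only the spread between these embryos.

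Each embryo had 1 table of internal reads, from inside the transcript, and 1 of 5' reads, from near its start. Gene counts ranged from 220921 to 2039475 per embryo in internal reads and from 505157 to 2343900 in 5' reads. Repeats took 13.9% to 40.0% of internal counts. Srf counts stood at 24.9 ± 11.4 CPM in controls (mean ± SD, n = 9) and 351 ± 236 for SRF-LOF embryos (n = 7). They stood at 726 ± 545 for double-LOF (n = 10) and 24.6 ± 11.2 for DUX-LOF embryos (n = 9), and embryonic and injected Srf RNA are counted together. The 8 late 2-cell markers were all detected and summed to 338 to 5963 CPM in controls, 983 to 4588 with SRF-LOF, 200.2 to 454 with DUX-LOF and 337.5 to 845 with double-LOF. The 6 oocyte and maternal markers were lower with the DUX oligo too, at 5356 ± 877, 5972 ± 1078, 2774 ± 666 and 2911 ± 1016 CPM in the same order. Summed markers of cumulus cells reached at most 26.4 CPM in any embryo, those of sperm 27.8 CPM and those of blood cells 155 CPM (group means 57.9, 44.8, 85.7 and 63.5 CPM), with Fshr and Hbb-bs at 0 in every embryo. Libraries SRF-LOF 3, SRF-LOF 8 and DUX-LOF 10 stood apart from their groups in an earlier look at all genes. Calls lost without them are named. Calls gained without them are named for SRF-LOF against control and for double-LOF against SRF-LOF. CPM are counts per 1000000 of the TMM-scaled gene total of the same embryo. They were not scaled by length or copy number, so levels of different subfamilies are not ranked against each other.

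The members were thinly counted. Over all 35 embryos they held 118874 internal counts, and 123 of the 338 had none. Only 55 had a count in every embryo. The filter on low counts left 63 members for the test in internal reads (54 of class DNA, 9 of class LINE), which carried 90.6% of the members' counts. In 5' reads 50 were tested (43 and 7), and 44 in both. At the edge of the filter in internal reads, MER2B with 278 counts and Zaphod with 252 were left out, while MER115 with 248 and Charlie17b with 214 were kept. By family, the tested members were 27 of 85 hAT-Charlie, 14 of 60 TcMar-Tigger, 5 of 50 hAT-Tip100 and 5 of 10 hAT-Blackjack, and among LINEs 4 of 22 CR1, 4 of 10 L2 and 1 of 4 RTE-X. None of the Crypton, PiggyBac, Merlin, MULE-MuDR or Penelope subfamilies was counted deeply enough in either read class.

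The summed level of the members did not separate the groups. Class DNA members summed to 1900 ± 742 CPM in controls (n = 9), 1764 ± 307 for SRF-LOF (n = 7), 2085 ± 464 for DUX-LOF (n = 9) and 2267 ± 509 for double-LOF embryos (n = 10) in internal reads. Lowest, median and highest were 1149, 1450 and 2885 in controls, 1374, 1647 and 2127 for SRF-LOF, 1443, 2147 and 2904 for DUX-LOF and 1718, 2161 and 3155 for double-LOF. All 4 groups overlapped, and 2 of 10 double-LOF embryos lay above every control. Class LINE members summed to 1041 ± 442, 1137 ± 206, 1088 ± 313 and 1246 ± 294 CPM in the same order. Against control, the difference in mean log2 level was -0.03, 0.20 and 0.32 for class DNA and 0.22, 0.13 and 0.34 for class LINE in SRF-LOF, DUX-LOF and double-LOF embryos, below the SD of 0.57 and 0.62 between control embryos. In 5' reads the class DNA sums were 1235 ± 379, 1267 ± 204, 1470 ± 356 and 1593 ± 294 CPM, also overlapping. In whole embryos a smaller share of cells or nuclei with a transcript and less of it per cell cannot be told apart.

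**Figure D1:**
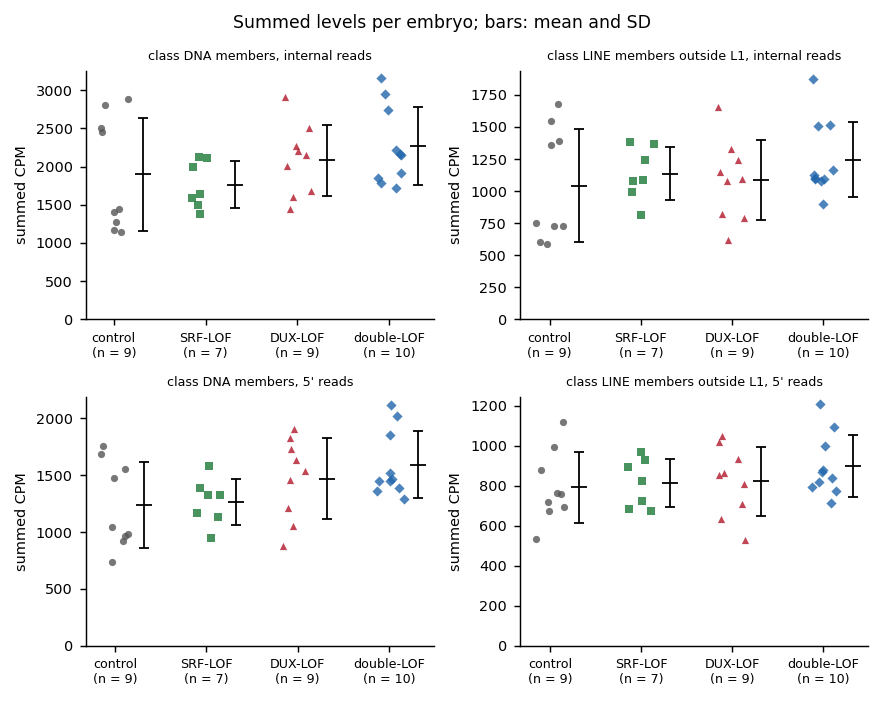
Summed CPM of class DNA members (left) and class LINE members outside L1 (right) per embryo in internal reads (top) and 5' reads (bottom), by group; points are embryos and bars show mean and SD. The groups overlap in every panel, and the 9 controls fall at 1149 to 1450 and 2449 to 2885 in internal reads of class DNA, with no control between.

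The spread of the summed level was widest inside the control group. Controls 1, 3, 4, 5 and 6 had summed member levels of 2004, 2176, 2158, 1773 and 1739 CPM in internal reads, and controls 2, 8, 9 and 10 had 3836, 3866, 4488 and 4432. No control lay between 2176 and 3836 CPM. In 5' reads the same embryos stood at 1269 to 1761 and at 2315 to 2872 CPM. MIR SINEs followed, at 730 to 948 and at 1642 to 2293 CPM in internal reads, and so did the old L1M subfamilies, at 1684 to 2474 and at 4866 to 5503 CPM. Annotated sense-intronic genes summed to 79.4 to 129 CPM in the lower embryos and to 111, 169.5, 226 and 207 CPM in controls 2, 8, 9 and 10, so that control 2 was within the lower range. The share of mitochondrial counts overlapped, at 2.73% to 7.13% and 5.27% to 8.47%. The part of these quantities in the members' levels was not tested.

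The sum of the members kept a narrow ratio to MIR from embryo to embryo. It ranged from 1739 to 5030 CPM over the 35 embryos in internal reads, while its ratio to the MIR sum ranged from 1.957 to 2.66 (1.75 to 2.51 in 5' reads). Its mean was 2.29 ± 0.16 in controls, 2.35 ± 0.17 for SRF-LOF, 2.32 ± 0.21 for DUX-LOF and 2.23 ± 0.12 for double-LOF embryos. In internal reads 1 of 7 SRF-LOF, 2 of 9 DUX-LOF and 0 of 10 double-LOF embryos lay above all controls and none below. In 5' reads 3 of 7 SRF-LOF (1.98 ± 0.14 against 2.22 ± 0.19 in controls) and 1 of 9 DUX-LOF embryos lay below and 1 of 10 double-LOF above. The ratio to old L1M subfamilies was lower in both groups with the DUX oligo, at 0.72 ± 0.05 for DUX-LOF and 0.68 ± 0.08 for double-LOF against 0.86 ± 0.09 in controls and 0.83 ± 0.10 for SRF-LOF. Below all controls lay 6 of 9 DUX-LOF and 9 of 10 double-LOF embryos, and 7 of 9 and 9 of 10 in 5' reads. The L1M sum in internal reads was 3508 ± 1550 CPM in controls, 3569 ± 959 for SRF-LOF, 4462 ± 1159 for DUX-LOF and 5204 ± 999.8 for double-LOF. The member sum was 2941 ± 1181, 2901 ± 508, 3173 ± 769 and 3513 ± 789 CPM in the same order. So the lower ratio went with a higher mean of L1M and not with a lower mean of the members. The ratio of class DNA to class LINE was 1.56 ± 0.09 for SRF-LOF and 1.85 ± 0.10 in controls in internal reads, with 6 of 7 SRF-LOF embryos below all controls, and 1.956 ± 0.202 for DUX-LOF, with 5 of 9 above and 1 below. In 5' reads it was 1.56 ± 0.12 for SRF-LOF and 1.54 ± 0.24 in controls, and no SRF-LOF embryo was below all controls. These ratios are given as descriptions, without a test. The late 2-cell and maternal markers given above moved with the DUX oligo as the L1M ratio did, and their part in it was not tested.

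**Figure D2:**
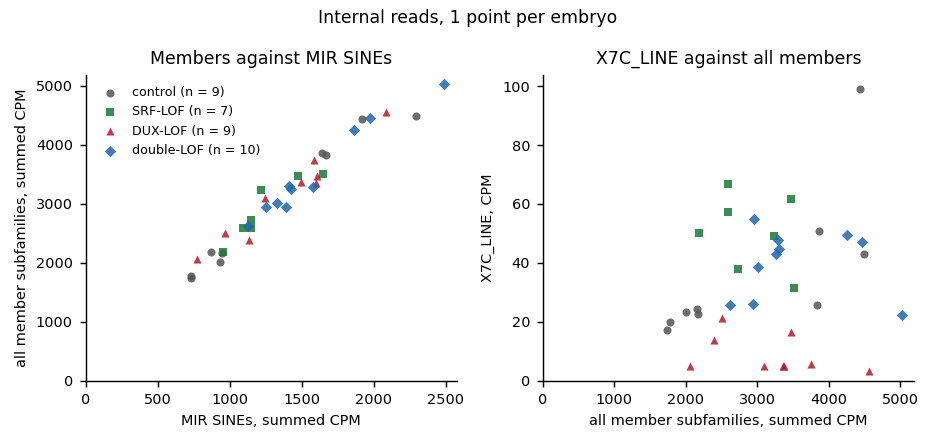
Internal reads, 1 point per embryo with the group by colour and marker: the summed CPM of all members against that of MIR SINEs (left) and CPM of X7C_LINE against the summed CPM of all members (right). The left points lie along 1 line with ratios of 1.957 to 2.66, and on the right the DUX-LOF embryos lie at 3.17 to 21.2 CPM of X7C_LINE over member sums of 2065 to 4563 CPM.

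Summed by family in internal reads, the group means of hAT-Charlie, TcMar-Tigger, L2 and CR1 differed from control by less than the SD between controls. hAT-Charlie, the family that holds 50900 of the members' internal counts, stood at 1268 ± 479 CPM in controls, 1143 ± 176 for SRF-LOF, 1398 ± 302 for DUX-LOF and 1497 ± 315 for double-LOF embryos. TcMar-Tigger stood at 385.5 ± 170.0, 358 ± 87.5, 398 ± 98.1 and 463 ± 123 CPM. The L2 family stood at 791 ± 376, 868 ± 201, 854 ± 273 and 973 ± 265 CPM. CR1, which holds X7C_LINE, was at 231 ± 65.6 CPM in controls and 213 ± 38.1 with DUX-LOF, a log2 difference of -0.12 (0.12 in 5' reads). hAT-Tip100 had log2 differences of 0.33 and 0.35 with DUX-LOF and double-LOF in internal reads and 0.62 and 0.75 in 5' reads. In 5' reads it stood at 45.6 ± 19.0 CPM in controls, 69.9 ± 26.4 for DUX-LOF and 76.6 ± 26.0 for double-LOF, and TcMar-Tigger at 190.4 ± 55.1, 249.9 ± 72.6 and 264 ± 83.1, differences above the SD between controls. Families under 1000 counts were not compared in this way, and some of them also differed by more than this SD. TcMar-Mariner, with 748 internal counts, stood at 13.9 ± 7.17, 21.4 ± 6.47 and 26.0 ± 6.03 CPM in internal reads in the same order. In 5' reads it stood at 8.43 ± 2.98, 14.9 ± 8.40 and 15.4 ± 4.99 CPM.

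The most deeply counted subfamilies did not pass the test in internal reads in any of the 6 comparisons. They were URR1A, URR1B and RCHARR1, short hAT-Charlie elements of rodents, MER5A and MER5B, which lack a transposase gene of their own, and the Tigger element MER2, with L2a, L2, L2b and L2c among LINEs. L2a ranged over 137, 174 and 398.5 CPM (lowest, median, highest) in controls, 193, 279 and 353 for SRF-LOF, 173, 308 and 452 for DUX-LOF and 219, 293 and 545 for double-LOF embryos. Its log2 fold change between double-LOF and control was 0.43 ± 0.22 (standard error; adjusted p = 0.208). URR1A ranged over 105, 219 and 356, then 132, 179 and 250.5, then 160, 221 and 336, then 182, 257 and 356 CPM in the same order. Its change was 0.20 ± 0.21 (adjusted p = 0.544). For both, every LOF group overlapped the controls.

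Read against all repeats, the tested members were not called more often in any comparison with control in internal reads. All p-values here come from edgeR's quasi-likelihood test over all repeats tested, with Benjamini-Hochberg adjustment and a threshold of 0.05. With SRF-LOF 0 of 63 members passed against 0.16% of all 625 repeats, while 4 members had an unadjusted p under 0.05 and DESeq2 called 0. With DUX-LOF 0 rose and 2 fell against 6.4% of all repeats, and with double-LOF 2 rose and 0 fell against 12.8%. The members' median log2 fold change was -0.03, 0.13 and 0.30, beside -0.08, 0.12 and 0.24 over all repeats, and was 0.06, 0.04 and 0.02 with TMM factors from repeats. Members above 0 were 28, 40 and 54 of 63, beside 40.8%, 60.2% and 70.9% of all repeats. Between double-LOF and DUX-LOF embryos 1 member rose and 0 fell (0.16% of all repeats), and between double-LOF and SRF-LOF 3 rose and 0 fell (14.9%). The interaction, which is the double-LOF minus DUX-LOF difference less the SRF-LOF minus control difference, called 0 members (0.32% of all repeats), while 5 had an unadjusted p under 0.05 and DESeq2 called 0. Each LOF group was compared with the same 9 controls, so these comparisons share samples.

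**Figure D3:**
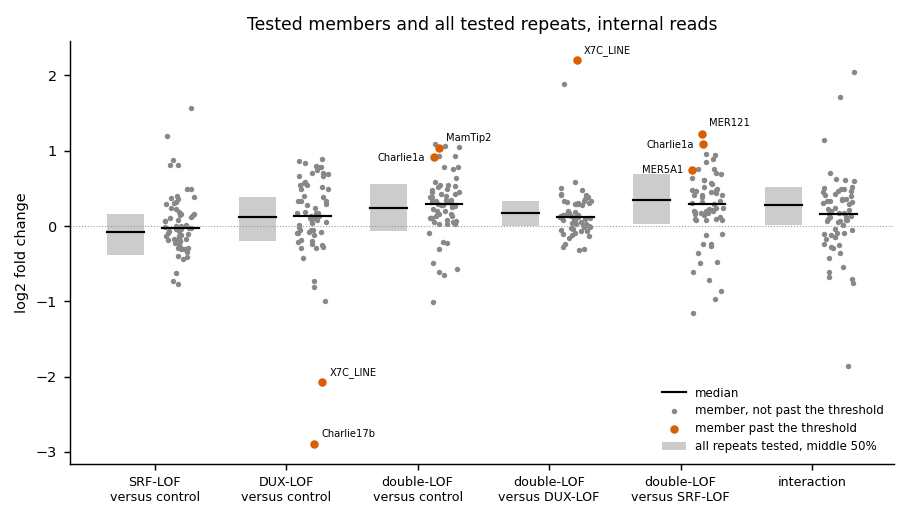
Log2 fold changes in internal reads for the 6 comparisons: grey bars span the middle 50% of all 625 tested repeats, points are the 63 tested members, black lines are medians, and orange points passed the adjusted threshold of 0.05. Most members lie near the median of all repeats, and X7C_LINE at -2.07 and Charlie17b at -2.90 with DUX-LOF lie apart.

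X7C_LINE, a LINE of the CR1 family, fell with the DUX oligo and was higher again in embryos with both agents. It was the only member called between double-LOF and DUX-LOF. It stood at 17.1, 24.4 and 99.2 CPM (lowest, median, highest) in controls, 31.5, 50.3 and 66.8 for SRF-LOF, 3.17, 5.05 and 21.2 for DUX-LOF and 22.1, 43.9 and 54.9 for double-LOF embryos. DUX-LOF embryos 5, 6 and 11 were at 16.4, 21.2 and 13.7 CPM and the other 6 at 3.17 to 5.51, and 8 of 9 lay below every control. All 10 double-LOF embryos lay above every DUX-LOF embryo. The fall with DUX-LOF, from 36.2 ± 26.1 to 8.86 ± 6.49 CPM, was -2.07 ± 0.34 on the log2 scale (adjusted p = 6.92e-05), rank 3 of 625 repeats by p. The difference between double-LOF (40.0 ± 11.4 CPM) and DUX-LOF was 2.20 ± 0.34 (adjusted p = 4.79e-05), the only call among the 625 repeats. Both calls held in all 35 fits that left out 1 embryo, and without SRF-LOF 3, SRF-LOF 8 and DUX-LOF 10 the changes were -1.958 and 2.035. Without control 10, the highest control, the fall was -1.72 (adjusted p = 5e-04). The summed late 2-cell markers were also lower with DUX-LOF (200.2 to 454 CPM against 338 to 5963 in controls), and their part in the changes of X7C_LINE and Charlie17b was not tested.

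In the remaining comparisons X7C_LINE did not pass. It was at 0.50 ± 0.33 for SRF-LOF against control (adjusted p = 0.575), at 0.13 ± 0.31 for double-LOF against control (adjusted p = 0.799) and at -0.36 ± 0.33 for double-LOF against SRF-LOF (adjusted p = 0.462). The interaction was 1.71 ± 0.47 (adjusted p = 0.0993), and its adjusted p was 0.0281 without DUX-LOF 6. So the difference between the effects of dominant negative SRF with and without the DUX oligo did not pass in the fit of all embryos. As a share of all members of the same embryo, itself included, X7C_LINE made up 11.8 ± 4.36 of every 1000 member CPM in controls. It made up 18.1 ± 5.91 for SRF-LOF, 3.12 ± 2.62 for DUX-LOF and 11.8 ± 3.77 for double-LOF, and 8 of 9 DUX-LOF embryos were below all controls on this scale too. Its 5' counts were 14, 7, 15 and 35 over the whole of the control, SRF-LOF, DUX-LOF and double-LOF groups, too few for the test, so the fall was seen in internal reads alone. L3, L3b and Plat_L3, the other CR1 members tested, were at 135.5 ± 31.9, 28.2 ± 8.27 and 19.1 ± 9.28 CPM in controls and at 146 ± 32.2, 26.3 ± 6.12 and 15.5 ± 6.00 for DUX-LOF, and none of them passed in internal reads.

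**Figure D4:**
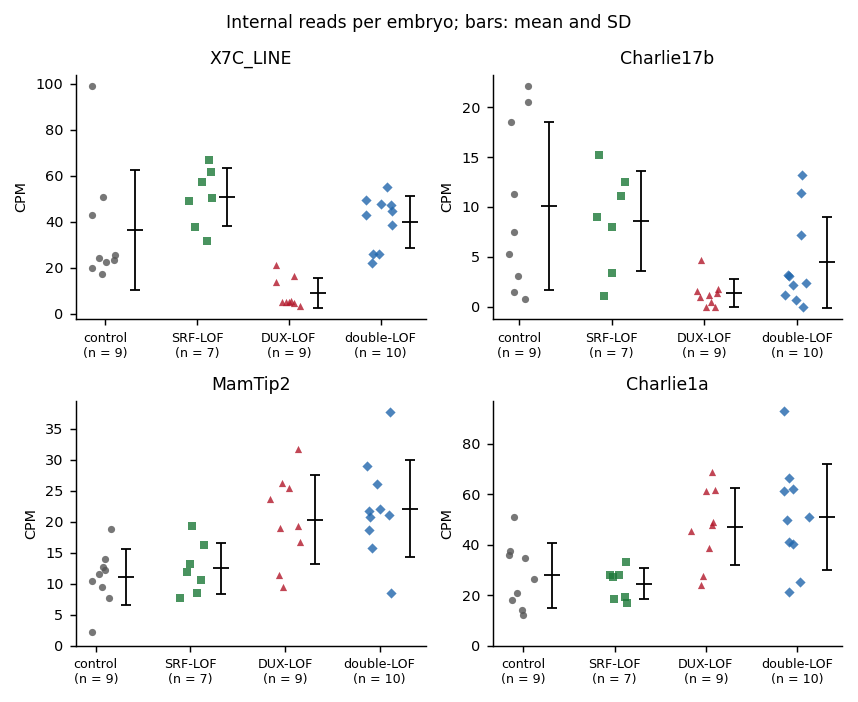
Internal CPM per embryo of X7C_LINE, Charlie17b, MamTip2 and Charlie1a by group; points are embryos and bars show mean and SD. X7C_LINE is at 3.17 to 21.2 CPM in DUX-LOF and 22.1 to 54.9 for double-LOF embryos without overlap, while the groups of the other 3 subfamilies overlap.

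Of 11868 tested genes, the 3 whose level ranked most like X7C_LINE over the 35 embryos were predicted genes on chromosome 12 (GRCm38). Gm47184 (83505082 to 83505579) had a Spearman rho of 0.819, Gm2035 (87919423 to 87919857) of 0.778 and Gm2075 (88011848 to 88012282) of 0.772. Gm47184 averaged 13.9 CPM in controls, 27.3 for SRF-LOF, 0.98 for DUX-LOF and 7.56 for double-LOF embryos, and fell by 3.86 on the log2 scale with DUX-LOF (standard error 0.80, adjusted p = 0.000824). Between double-LOF and DUX-LOF it was at 2.999 ± 0.794, which did not pass over all genes (adjusted p = 0.688). Gm2035 and Gm2075 lie in a cluster of similar gene copies, so their single counts are uncertain. These genes were picked by their likeness over the same embryos, and the rho values are a description.

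Charlie17b, an hAT-Charlie subfamily, was the second member that fell with DUX-LOF. It had 0.77, 7.50 and 22.1 CPM (lowest, median, highest) in controls, 1.08, 9.01 and 15.2 for SRF-LOF, 0, 1.197 and 4.70 for DUX-LOF and 0, 2.74 and 13.2 for double-LOF embryos. Controls 1, 5 and 6 were inside the DUX-LOF range, and 3 of 9 DUX-LOF embryos were below every control. The fall was -2.90 ± 0.64 (adjusted p = 0.00322). Double-LOF embryos were at -1.01 ± 0.55 against control (adjusted p = 0.237) and 1.89 ± 0.67 against DUX-LOF (adjusted p = 0.451). With 214 counts in all it was the most thinly counted member tested, and it passed the filter through the groups in which it was higher. Its nearest genes by rank were Gm13083 (rho 0.739), Gm5837 (0.735) and Olfr376 (0.721), of which Gm13083 averaged 158 CPM in controls and 12.8 for DUX-LOF embryos.

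MamTip2 and Charlie1a rose in double-LOF embryos in internal reads. MamTip2, of the hAT-Tip100 family, had 2.27, 11.6 and 18.8 CPM in controls, 7.67, 11.9 and 19.3 for SRF-LOF, 9.40, 19.3 and 31.7 for DUX-LOF and 8.45, 21.4 and 37.8 for double-LOF. Above all controls lay 7 of 10 double-LOF embryos. The rise was 1.03 ± 0.29 (adjusted p = 0.0173) and was 0.89 ± 0.29 with DUX-LOF alone (adjusted p = 0.0573). Ccdc88c, Acacb and Nsd2 were the genes closest to it in rank (rho 0.734, 0.729 and 0.729). Charlie1a, of the hAT-Charlie family, went from 27.9 ± 12.9 CPM in controls to 51.0 ± 21.1 for double-LOF (0.91 ± 0.27, adjusted p = 0.0193), with 4 of 10 above all controls. That call was lost without control 3, 5 or 6 or double-LOF 5 (adjusted p up to 0.0825), and each of these left 1 of the 2 calls of this comparison, while leaving out control 9 gave 4. With ERCC scaling neither MamTip2 (adjusted p = 0.079) nor Charlie1a (adjusted p = 0.075) passed and L4_A_Mam, of the RTE-X family, was the 1 member called (1.65 ± 0.53, adjusted p = 0.0494). Charlie1a also missed with only the groups compared in the fit (adjusted p = 0.0514). MMAR1, a mariner element (0.78 ± 0.28, adjusted p = 0.0548), Tigger1 (0.78 ± 0.30), Charlie7 (1.09 ± 0.45) and MER115 (1.04 ± 0.44) were nearest to passing with double-LOF. The DUX-LOF count of 2 became 4 without DUX-LOF 3.

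Against SRF-LOF, double-LOF embryos had higher Charlie1a (1.08 ± 0.29, adjusted p = 0.0108, with 8 of 10 above every SRF-LOF embryo), MER121 (1.23 ± 0.41, adjusted p = 0.0394) and MER5A1 (0.75 ± 0.26, adjusted p = 0.0498). MER121, of the TcMar group, ran from 2.57 to 6.63 CPM in SRF-LOF and from 0 to 17.6 for double-LOF, where 8 embryos were above and 2 below all of SRF-LOF. MER121 lost its call in 10 of the 35 fits that left out 1 embryo (among them those without SRF-LOF 3 or 5) and MER5A1 in 26. Both were lost without SRF-LOF 3, SRF-LOF 8 and DUX-LOF 10 together (adjusted p = 0.0772 and 0.0985). Without SRF-LOF 4 or 6 or double-LOF 1 or 5 only 1 of the 3 calls was left, and without control 1 or double-LOF 7 there were 5. MER91A, an hAT-Tip100 subfamily, had the smallest unadjusted p among members with SRF-LOF, at 4.40 ± 3.92 CPM in controls and 12.8 ± 5.75 for SRF-LOF (1.56 ± 0.44, adjusted p = 0.128). Without SRF-LOF 3, SRF-LOF 8 and DUX-LOF 10 it passed (1.78 ± 0.48, adjusted p = 0.0244), as did MER44B, at -1.68 ± 0.49 (adjusted p = 0.0343, and -0.77 with all embryos), against 6.09% of all repeats in that fit. Between double-LOF and SRF-LOF the same fit called MER91A (-1.42 ± 0.46, adjusted p = 0.036) and MER44B (1.42 ± 0.48, adjusted p = 0.0421) too, against 14.1% of all repeats. MER94 (1.19 ± 0.55), BLACKJACK (0.81 ± 0.40) and Charlie5 (-0.62 ± 0.29) came next with SRF-LOF and did not pass. In 5' reads MER91A was at 0.78 ± 0.77 with SRF-LOF (adjusted p = 0.624).

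Read starts gave a second view of the same embryos. The 44 members tested in both read classes had relatively fewer 5' than internal reads: the log2 ratio of 5' to internal CPM had a median of -0.64 over the members and -0.18 over all 573 repeats tested in both. It was above 0 for 4 of 44 members, beside 227 of 573 repeats. URR1B (0.34), MER5A (0.29), MER33 (0.19) and MER5A1 (0.07) were these 4, and Charlie1b was lowest at -1.85. Fewer 5' reads were not particular to the members. In controls MIR SINEs summed to 1305 CPM in internal and 923 CPM in 5' reads, beside 2941 and 2027 CPM for all members. The old L1M subfamilies differed less, at 3508 and 3399 CPM. Tigger12 was tested in 5' reads alone, at 16.4 CPM in controls against 1.957 CPM in internal reads.

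In 5' reads more members passed, in shares close to those of all repeats. With SRF-LOF 0 of 50 passed (0.159% of all 630 repeats; 3 at an unadjusted p under 0.05, 1 by DESeq2). With DUX-LOF 5 rose and 0 fell (12.5%), and with double-LOF 6 rose and 2 fell (15.2%). Double-LOF and DUX-LOF differed in 0 members (0%; 1 at an unadjusted p under 0.05, 0 by DESeq2) and the interaction called 0 (0%; 1 unadjusted, 0 by DESeq2). Double-LOF and SRF-LOF differed in 15, 12 higher and 3 lower (27%). The members' median was 0.34 with DUX-LOF, 0.41 with double-LOF and 0.60 between double-LOF and SRF-LOF, beside 0.19, 0.26 and 0.39 over all repeats. Members above 0 were 36, 41 and 39 of 50, beside 60.5%, 66.7% and 69.7% of all repeats. The double-LOF count of 8 was 4 without control 6 or double-LOF 5 and 13 without control 10, the DUX-LOF count of 5 was 3 without DUX-LOF 7, and the count of 15 fell to 7, 8, 9 and 9 without double-LOF 5, double-LOF 1, SRF-LOF 4 and SRF-LOF 6. A count of 0 became 1 with SRF-LOF without control 8 or SRF-LOF 8, and between double-LOF and DUX-LOF without double-LOF 9 or DUX-LOF 10.

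Charlie1a had the clearest separation in 5' reads. It had 8.46, 14.96 and 37.6 CPM (lowest, median, highest) in controls, 2.77, 7.81 and 16.9 for SRF-LOF, 26.9, 36.5 and 55.1 for DUX-LOF and 21.5, 42.4 and 59.6 for double-LOF embryos. Every embryo of both groups with the DUX oligo was above every SRF-LOF embryo, while controls overlapped all groups. The rise was 0.995 ± 0.289 with DUX-LOF (adjusted p = 0.0164, and 0.102 with ERCC scaling, where it did not pass), 1.10 ± 0.28 with double-LOF (adjusted p = 0.00535) and 2.35 ± 0.33 between double-LOF and SRF-LOF (adjusted p = 3.54e-06). With SRF-LOF alone it was at -1.25 ± 0.34 (adjusted p = 0.0799), and at -1.62 ± 0.38 without SRF-LOF 3, SRF-LOF 8 and DUX-LOF 10 (adjusted p = 0.00781). Its relative Charlie1 rose with DUX-LOF from 4.70 ± 2.998 to 13.5 ± 9.96 CPM (1.48 ± 0.42, adjusted p = 0.0149), with 6 of 9 embryos above and 1 below all controls.

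Further rises with DUX-LOF in 5' reads were those of the Tigger elements Tigger13a (1.78 ± 0.54) and Tigger1 (1.63 ± 0.50) and of MER33 (1.15 ± 0.37). Tigger elements descend from a pogo-like transposon. With double-LOF MER91A (2.05 ± 0.66), Tigger1 (1.52 ± 0.48), Charlie4a (1.28 ± 0.44), MER33 (1.18 ± 0.36) and MER2 (0.87 ± 0.27) rose. MER2 went from 41.0 ± 17.4 to 74.8 ± 26.2 CPM, with 5 of 10 embryos above all controls. MER33 lost its DUX-LOF call without SRF-LOF 3, SRF-LOF 8 and DUX-LOF 10 (adjusted p = 0.0713), with only the groups compared (adjusted p = 0.0613) and without any 1 of controls 1, 2, 3, 5 and 6 and DUX-LOF 7, 10 and 12. Tigger13a lost it without DUX-LOF 8 (adjusted p = 0.0673) and under ERCC scaling (adjusted p = 0.0572), and Tigger1 without DUX-LOF 7 (adjusted p = 0.0667). With double-LOF, MER2 was lost without control 5 or 6 or double-LOF 5, Tigger1 without these or double-LOF 1, MER91A without control 3, 4 or 6, and Charlie4a in 10 of 35 fits, with adjusted p of at most 0.0855 in all of them. MER91A was tested in only 27 of the 35 fits. With 212 counts it was the most thinly counted member tested in 5' reads, while MER63D with 271 was left out. So MER91A passed the filter through the embryos in which it was higher.

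Tigger12 and Plat_L3 went down in double-LOF embryos in 5' reads, against the direction of most members. Tigger12 had 9.84, 14.0 and 34.97 CPM in controls, 3.55, 16.6 and 25.4 for SRF-LOF, 1.79, 7.94 and 15.3 for DUX-LOF and 2.24, 4.94 and 9.85 for double-LOF, and 9 of 10 double-LOF embryos lay below all controls. Its fall was -1.45 ± 0.35 against control (adjusted p = 0.0027) and -1.37 ± 0.37 against SRF-LOF (adjusted p = 0.00644). With DUX-LOF it was at -0.98 ± 0.36 (adjusted p = 0.0654). Plat_L3, a CR1 LINE first described from the platypus, had 3.23, 11.1 and 18.1 CPM in controls, 2.27, 6.91 and 13.1 for SRF-LOF, 4.49, 9.96 and 24.1 for DUX-LOF and 1.34, 3.29 and 7.004 for double-LOF. Control 8 was the lowest control, and 4 of 10 double-LOF embryos were below it. The fall against control was -1.60 ± 0.36 (adjusted p = 0.00158), and in internal reads Plat_L3 was at -0.57 ± 0.40 (adjusted p = 0.374). Against DUX-LOF it was at -1.46 ± 0.36 in 5' reads and did not pass (adjusted p = 0.155).

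**Figure D5:**
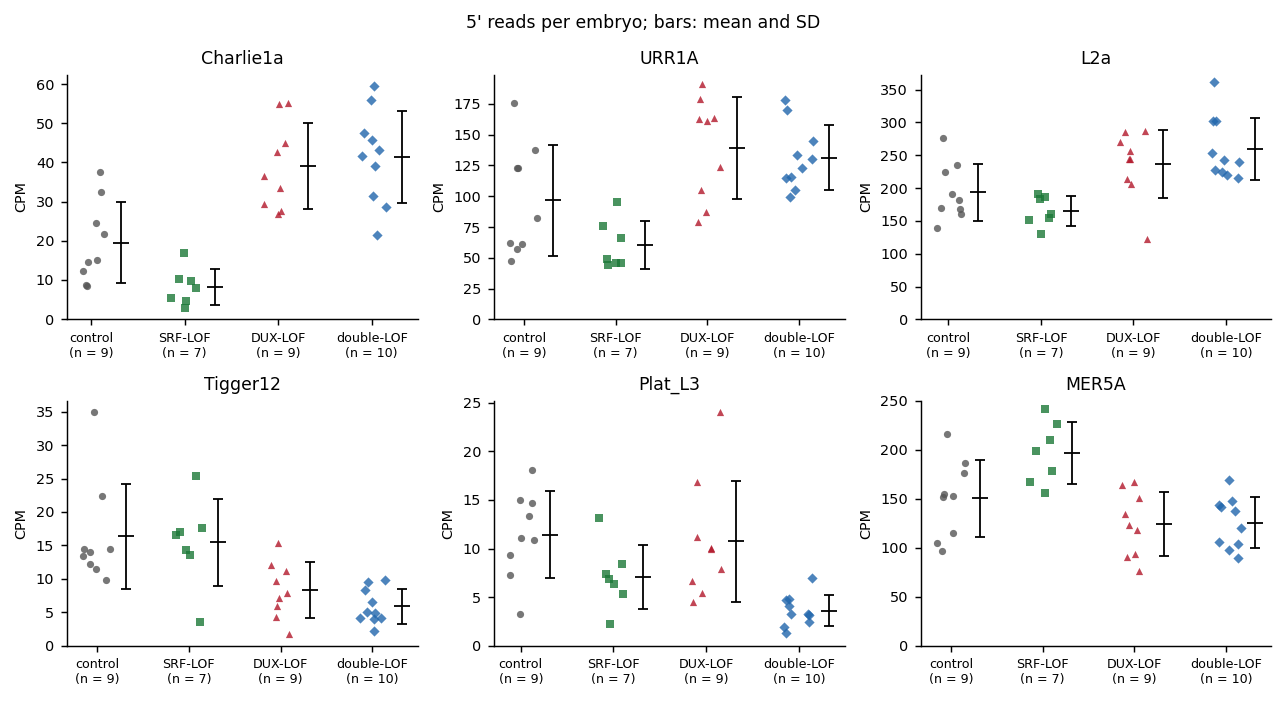
CPM in 5' reads per embryo of Charlie1a, URR1A, L2a, Tigger12, Plat_L3 and MER5A by group; points are embryos and bars show mean and SD. Charlie1a, URR1A and L2a are higher in all 10 double-LOF embryos than in any SRF-LOF embryo, and Tigger12 is at 2.24 to 9.85 CPM in double-LOF against 9.84 to 34.97 in controls.

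Between double-LOF and SRF-LOF embryos the deeply counted URR1A and L2a separated fully in 5' reads. URR1A had 44.3, 49.0 and 95.6 CPM for SRF-LOF and 99.5, 126 and 178 for double-LOF, and rose by 1.12 ± 0.25 (adjusted p = 0.00104). L2a had 130, 161 and 191 CPM for SRF-LOF and 216, 242 and 361 for double-LOF, a rise of 0.65 ± 0.18 (adjusted p = 0.00684). Controls lay across both, at 47.2 to 176 CPM for URR1A and 139 to 277 CPM for L2a. MER103C (1.97 ± 0.54), RMER30 (1.23 ± 0.37), Charlie4a, Tigger17a, Tigger5b, MER33, MER20, MER58A and MER2 rose as well. Of these Tigger17a and Tigger5b lost their calls in 11 of the 35 fits that left out 1 embryo, Charlie4a in 19, MER33 in 9 and MER20 and MER58A in 8, those without double-LOF 1 or 5 among them, and MER2 without double-LOF 5 or SRF-LOF 8. Without SRF-LOF 3, SRF-LOF 8 and DUX-LOF 10 together, MER2, MER33, Charlie4a, MER58A, Tigger5b and Tigger17a did not pass (adjusted p = 0.0733 to 0.14). The same fit also called MER2B (2.26 ± 0.70, adjusted p = 0.0158), Tigger17c (2.22 ± 0.83, adjusted p = 0.0417) and Charlie2a (-1.405 ± 0.487, adjusted p = 0.0288), against 27.1% of all repeats. With all embryos, MER2B and Tigger17c were not tested in 5' reads and Charlie2a did not pass (adjusted p = 0.0697). MER5A fell, from 197 ± 31.6 CPM in SRF-LOF to 126 ± 25.9 for double-LOF (-0.65 ± 0.18, adjusted p = 0.0103), as did Eulor8, a conserved element of the TcMar group (-1.36 ± 0.49, adjusted p = 0.0368, lost in 9 of 35 such fits). With ERCC scaling, which moved the median of all genes in this comparison from 0.01 to 0.42, MER5A, Tigger12 and Eulor8 no longer passed, at -0.19, -0.86 and -0.90.

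The host genes that descend from DNA transposons were counted in internal reads from a list of 29, of which 16 passed the filter. They include Pogz and Tigd2 with domains of a Tigger-like transposase, Harbi1 of a Harbinger transposase, Zbed genes of hAT transposases and Thap genes with the DNA-binding domain of the P element. With SRF-LOF 0 of 16 passed (2.07% of all 11868 genes; 2 at an unadjusted p under 0.05, and DESeq2 called 2), and with DUX-LOF 0 rose and 2 fell (17.1%). Thap11, a transcription cofactor (chromosome 8, 105855132 to 105856950), had 288, 647 and 1130 CPM in controls, 246, 329.5 and 807 for SRF-LOF, 102, 276 and 423 for DUX-LOF and 132, 245 and 467 for double-LOF. It fell by 1.17 on the log2 scale with DUX-LOF (standard error 0.27, adjusted p = 0.00245) and by 1.28 with double-LOF (standard error 0.26, adjusted p = 0.000584), with overlapping groups. Thap7, a chromatin-associated repressor, fell by 1.06 with DUX-LOF (standard error 0.33, adjusted p = 0.0205).

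With double-LOF 1 of the 16 genes rose and 1 fell (19.5% of all genes), the riser being Zbed4, from 39.0 ± 10.02 to 60.7 ± 10.6 CPM (0.64 ± 0.20, adjusted p = 0.0216). Between double-LOF and SRF-LOF 1 rose and 3 fell (27.5%). Pogz, a heterochromatin-binding protein (chromosome 3, 94837567 to 94882326), had 2.16, 9.99 and 18.7 CPM for SRF-LOF and 16.9, 33.5 and 58.4 for double-LOF, and 22.5 ± 6.26 in controls; it rose by 1.78 ± 0.37 (adjusted p = 0.000595). Thap7, Thap6 and Thap11 were lower by 1.15, 0.72 and 0.76 on the log2 scale. Between double-LOF and DUX-LOF (0.00843% of all genes) and in the interaction (0%) edgeR called 0 of the 16, with 1 and 2 at an unadjusted p under 0.05, and DESeq2 called 0. With ERCC scaling the DUX-LOF and double-LOF calls of Thap11, Thap7 and Zbed4 against control were lost.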

How the data were processed

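The members and lists were chosen with earlier results of these data known. Per the file headers, the authors deposited whole-number counts of internal reads and of 5' reads for 54838 genes, 1395 repeat subfamilies and 92 ERCC spike-ins in each of 70 tables. Estimated counts is the unit recorded for the deposited 5' tables, but every value there is a whole number and they were analysed as counts. Per the labels' protocols, Smart-seq+5' libraries of polyA RNA were read as pairs of 150 bases. STAR 2.7.11a and GRCm38 come from the submitters' processing notes. Which tool counted reads, with which strand setting and with what rule for multimapping reads, is not given in the sources used here. Subfamilies share sequence and can share reads, so values of single members are uncertain, and reads in introns cannot be told from a repeat's own transcripts.

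From these counts, edgeR 4.0.16 (limma 3.58.1, R 4.3.3) fitted all repeat rows and all 4 groups at once, with library sizes and TMM factors from gene rows and filterByExpr. Genes were fitted in the same way, and GENCODE M21 named 54809 of them. Precision is limited by depth: intervals and SDs cover the spread between embryos. Named members were X7C_LINE, those that passed (in 5' reads up to 6 per direction by size), the 10 most deeply counted, and up to 4 with the smallest p that did not pass. MER44B, the further members named in 5' reads (URR1A and L2a among them) and the ratios of sums were added after values were seen. Alternatives were DESeq2 1.42.0, its size factors, TMM from repeats or from genes and repeats, ERCC scaling, no filter, only the groups compared, a replicate block, leaving out each embryo, leaving out 3 embryos or the 1 library under 0.25 of the median total, and, added after seeing the data, genes and repeats in 1 fit. The fit was tested on simulated data. No repeat consensus sequence or repeat map was used here, so no sequence is shown.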

Additional observations from a re-analysis of the deposited data

Results flagged for a closer look

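In 7 of the 120 groups of embryos examined (the sums of each class and the members called, by group and read class) 1 embryo stood far from the rest. Chance marks about 1 group in 20. In internal reads control 10 had 99.19 CPM of X7C_LINE, with the next control at 50.95. DUX-LOF 6 had 4.702 CPM of Charlie17b, with the next at 1.827. In 5' reads control 1 had 34.97 CPM of Tigger12 (next 22.44) and control 10 had 10.09 CPM of Tigger13a (next 4.987). SRF-LOF 6 had 9.047 CPM of MER103C (next 2.537) and SRF-LOF 9 had 12.34 CPM of Tigger17a (next 4.615). DUX-LOF 3 was the low embryo for L2a, at 122.3 CPM with the next at 206.7.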

How the results depend on the processing

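Counts of members past the threshold are given for internal reads first. Unless stated, the share of all repeats called in the same run is not given, here or for runs that left out 1 embryo. These counts are therefore not read as results about the members. With ERCC scaling the median log2 fold change of all repeats between double-LOF and SRF-LOF was 0.819 in internal reads, against 0.345 in the main fit. DESeq2 called 7 with DUX-LOF, 9 with double-LOF and 11 between double-LOF and SRF-LOF (5' reads: 1 with SRF-LOF, 9 with DUX-LOF, 15 with double-LOF). No filter gave 4, 9 and 5 in that order (5' reads: 12 with DUX-LOF, 18 with double-LOF). DESeq2 size factors gave 4 with DUX-LOF and 8 between double-LOF and SRF-LOF; TMM from repeats gave 1, 4 and 5 with SRF-LOF, with DUX-LOF and between double-LOF and SRF-LOF (5' reads: 9 with DUX-LOF); ERCC gave 1 with double-LOF and 17 between double-LOF and SRF-LOF (5' reads: 3 with DUX-LOF). Only the groups compared gave 1, 1 and 6 in that order (5' reads: 1 with DUX-LOF, 5 with double-LOF). Genes and repeats in 1 fit gave 1 between double-LOF and SRF-LOF (5' reads: 8). Without SRF-LOF 3, SRF-LOF 8 and DUX-LOF 10, 2 of 66 members passed with SRF-LOF in internal reads (6.09% of all repeats) and 2 of 59 in 5' reads (11.9%). The 5' calls were Charlie1a and Tigger17c (-2.66 ± 0.84, adjusted p = 0.0321), and Tigger17c was not tested with all embryos. Measured in 5' reads, the internal counts of 2, 2, 1 and 3 became 5, 8, 0 and 15 (in the order DUX-LOF, double-LOF, then double-LOF against each single agent, DUX-LOF first). The cause was not tested. Replicate numbers did not pair the embryos (20 of 41 same-number pairs had r over 0.1, mean 0.09; 5 of 33 embryos were closest to their own number). With the replicate block 1 passed with DUX-LOF and 1 between double-LOF and SRF-LOF (5' reads: 8, and 1 between double-LOF and DUX-LOF).

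Leaving out 1 embryo at a time gave 0 to 0 members with SRF-LOF, 2 to 4 with DUX-LOF, 1 to 4 with double-LOF, 1 to 1 between double-LOF and DUX-LOF, 1 to 5 between double-LOF and SRF-LOF and 0 to 1 for the interaction (5' reads: 0 to 1, 3 to 6, 4 to 13, 0 to 1, 7 to 15 and 0 to 0). The summed log2 differences ranged from -0.15 to 0.05, 0.12 to 0.30 and 0.20 to 0.37 for class DNA, and 0.09 to 0.31, 0.04 to 0.24 and 0.21 to 0.41 for class LINE. No alternative run moved them by more than the SD between controls. That SD (0.57 and 0.62) is larger than the differences, so this does not show that they are stable. In internal reads the members' median went from -0.029 to -0.324 with SRF-LOF under ERCC scaling. With double-LOF it went from 0.295 to 0.02 under TMM from repeats. Of transposon-derived genes, DESeq2 called 2 with SRF-LOF, 4 with DUX-LOF and 4 with double-LOF; ERCC scaling called 0, 0 and 2 with DUX-LOF, with double-LOF and between double-LOF and SRF-LOF; and 5' reads called 1 with DUX-LOF. Directions turned for X7C_LINE between double-LOF and control (-0.061 with TMM from repeats, and -0.025 to 0.433 when 1 embryo was left out, with 0 without control 5 and -0.025 without control 6) and between double-LOF and SRF-LOF (0.10 with ERCC), and in 5' reads for MER94 with SRF-LOF (-1.20) and MER91A between double-LOF and SRF-LOF (1.28), none of them past the threshold. ERCC scaling put the median gene at -0.46 with SRF-LOF. With the replicate block Charlie17b (adjusted p = 0.0879) and, in 5' reads, Tigger1 (0.108) and MER33 (0.0765) did not pass with DUX-LOF. Depth limits the test: no member under 214 internal or 212 5' counts was tested, and some with more, up to 278 and 271, were left out. MamTip2, Charlie17b and MER121, called in internal reads, were not tested in 5' reads.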
